A study of Schizosaccharomyces pombe with 3 samples.

Results

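Divergent promoter regions are the stretches between neighbouring protein-coding genes that are transcribed away from each other, so that a gap holds the start of a gene at either end. In the fission yeast Schizosaccharomyces pombe, 213 such gaps were covered by probes on a tiled stretch of chromosome II, and they took up 4331 of the 39949 probes placed on that stretch (10.8%) and of the 43993 probes in the series. Members were chosen from the gene annotation alone. The left gene had to lie on the minus strand and the right gene on the plus strand, the genes could not overlap, and the middle of a probe had to fall between them. The rule uses no measured value, though it was set with earlier results of these data known. Of these gaps, 200 held at least 3 usable probes and carry the summaries below. The other 13 gaps held fewer probes and are described apart.

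Acetylation of lysine 9 of histone H3 (H3K9ac) was mapped by chromatin immunoprecipitation on 60-base tiling arrays with 1 probe per 50 bp. Cells were wild type, carried a deletion of alp13 (alp13Δ), or carried the asf1-1 allele of asf1. All were asynchronous cultures growing exponentially in the rich medium YEA at 30 °C, with fixation at 18 °C by 3% paraformaldehyde. Each strain was hybridised to 1 array, so every difference between strains below is a difference between 2 arrays, with no replicate and no test. In fission yeast, asf1 is essential, so asf1-1 is a mutant allele and not a deletion. The genes alp13 and asf1 lie on other chromosomes, outside the stretch analysed, so the strain labels were not checked against the altered genes. A level is the log2 ratio of immunoprecipitated over whole-cell extract DNA, minus the median of that array, so 0 marks the array median and 1 unit a 2-fold difference. A change is the level in a mutant minus the level in wild type.

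H3K9ac is placed by histone acetyltransferases and is found mainly around the starts of active genes, where a nucleosome-depleted region is flanked by positioned, acetylated nucleosomes. In a divergent gap, a pair of promoters faces outwards and may share this region. Alp13 is a chromodomain subunit of Clr6 complex II, a histone deacetylase that in this yeast acts across transcribed genes, much as Rpd3S does in budding yeast. Asf1 is a chaperone that carries histones H3 and H4 and works with the HIRA complex in depositing them. The level measured here is H3K9ac per unit of DNA. Occupancy by histone H3 was not analysed here, so fewer nucleosomes, less acetylation per nucleosome and fewer acetylated cells cannot be told apart.

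6 of the gaps carry the sequence behind the values that follow: the histone pair hhf2/hht2, the gaps with the highest wild-type level (lcf2/SPBP4H10.12) and the second lowest (hsp16/SPBC3E7.17), the gap with the largest loss in the alp13 deletion (cyp3/sks2), a gap that was higher there (pho7/cbp4), and the glycolytic gap mug124/fba1, which had one of the 6 lowest changes in asf1-1. They were picked after their values were seen. Each is printed 5′ to 3′ on the plus strand of chromosome II of the reference assembly ASM294v3, from RefSeq, as the whole gap for hhf2/hht2 and as the middle 300 bases for the rest. Capitals mark matches on either strand to the promoter motifs listed further on.

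hhf2/hht2: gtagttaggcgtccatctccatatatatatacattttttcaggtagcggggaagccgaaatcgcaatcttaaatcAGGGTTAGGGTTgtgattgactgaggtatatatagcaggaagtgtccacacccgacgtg
lcf2/SPBP4H10.12: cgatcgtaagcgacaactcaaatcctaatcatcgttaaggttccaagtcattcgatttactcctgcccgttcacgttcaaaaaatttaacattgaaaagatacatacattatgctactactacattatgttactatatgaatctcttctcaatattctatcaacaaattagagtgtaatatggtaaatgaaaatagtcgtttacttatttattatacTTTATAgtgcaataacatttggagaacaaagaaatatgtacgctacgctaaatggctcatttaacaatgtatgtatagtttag
hsp16/SPBC3E7.17: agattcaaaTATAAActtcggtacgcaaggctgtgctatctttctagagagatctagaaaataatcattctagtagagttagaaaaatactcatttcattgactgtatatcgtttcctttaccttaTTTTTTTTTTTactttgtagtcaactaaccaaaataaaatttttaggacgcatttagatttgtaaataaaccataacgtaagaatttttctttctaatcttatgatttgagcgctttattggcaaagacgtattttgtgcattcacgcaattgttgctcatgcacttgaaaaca
cyp3/sks2: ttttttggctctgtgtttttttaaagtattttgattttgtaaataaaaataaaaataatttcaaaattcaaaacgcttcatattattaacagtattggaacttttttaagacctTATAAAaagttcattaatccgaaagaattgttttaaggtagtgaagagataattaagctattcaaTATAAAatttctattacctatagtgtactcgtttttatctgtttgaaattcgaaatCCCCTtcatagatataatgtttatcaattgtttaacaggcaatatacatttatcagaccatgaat
pho7/cbp4: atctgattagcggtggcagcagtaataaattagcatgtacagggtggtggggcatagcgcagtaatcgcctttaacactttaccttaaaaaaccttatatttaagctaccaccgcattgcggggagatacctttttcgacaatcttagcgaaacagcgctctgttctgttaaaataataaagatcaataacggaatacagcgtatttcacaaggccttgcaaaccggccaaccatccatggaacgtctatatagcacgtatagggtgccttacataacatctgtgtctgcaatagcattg
mug124/fba1: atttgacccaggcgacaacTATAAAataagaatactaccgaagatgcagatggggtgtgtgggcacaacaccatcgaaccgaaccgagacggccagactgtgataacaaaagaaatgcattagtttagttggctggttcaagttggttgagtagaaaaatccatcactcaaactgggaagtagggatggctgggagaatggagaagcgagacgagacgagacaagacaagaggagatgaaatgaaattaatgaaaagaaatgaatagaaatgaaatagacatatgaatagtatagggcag

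The printed stretches lie at II:1364985-1365118 for hhf2/hht2, II:2895118-2895417 for lcf2/SPBP4H10.12, II:2661244-2661543 for hsp16/SPBC3E7.17, II:1105383-1105682 for cyp3/sks2, II:1347980-1348279 for pho7/cbp4 and II:1687632-1687931 for mug124/fba1. All lie between protein-coding genes in the annotation, with non-coding genes overlapping every one of these gaps except pho7/cbp4. The capitals of hhf2/hht2 are 2 adjoining copies of AACCCT read on the minus strand, the box known from fission yeast histone promoters. In the other stretches the capitals are TATAAA on either strand, a run of T in hsp16/SPBC3E7.17 and CCCCT in cyp3/sks2. The stretch of pho7/cbp4 holds none of the motifs. Its GC content was 42.3%, close to the 41.7% of mug124/fba1 and above the 23.7% of cyp3/sks2.

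In wild-type cells divergent gaps carried more H3K9ac than the array median. The median over the 200 gaps was 0.70, with quartiles of 0.21 and 1.13 and a range from -1.67 to 2.04. In all, 164 gaps lay above the array median (82.0%, against 74.6% of the 532 gaps of every orientation), and 111 lay at least 1.5-fold above it, against 46.4% of all gaps and 23% of 873 protein-coding genes. Tandem gaps, between genes that run the same way, had a median of 0.47 (286 gaps). Convergent gaps, which hold gene ends and no starts, had a median of -0.10 (46 gaps). Divergent gaps were also wider, with a median width of 849.5 bp against 359 bp for tandem and 300 bp for convergent gaps, while median GC content was 31.3%, 31.3% and 30.7%. In the Cy5 channel alone, without the ratio to whole-cell extract, the wild-type median of divergent gaps was -0.31.

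**Figure D1:**
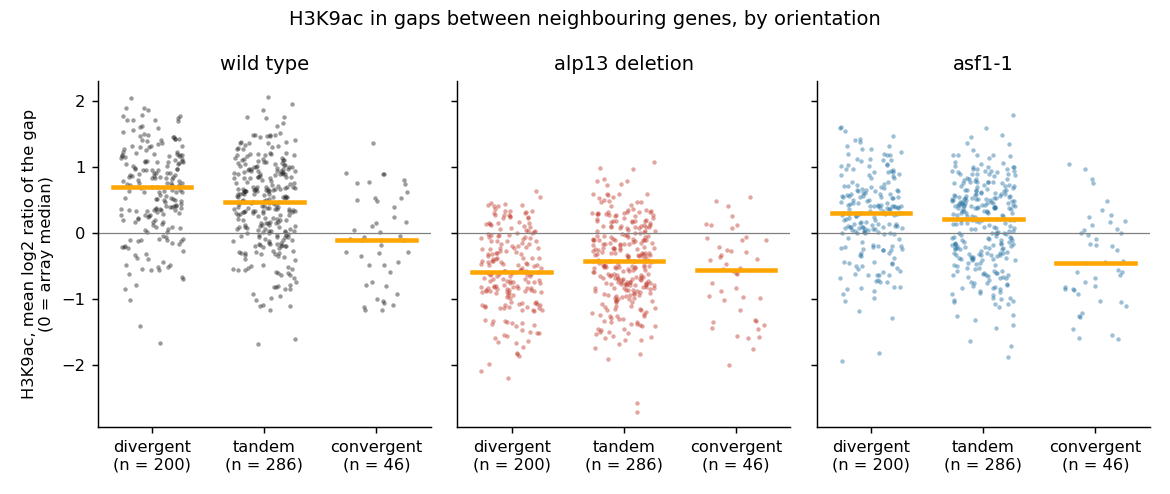
Level of H3K9ac in each gap (vertical axis, mean log2 ratio, 0 is the array median) on the wild-type, alp13 deletion and asf1-1 arrays, with gaps grouped by the orientation of their genes. Each point is 1 gap and each bar a group median: divergent gaps have the highest median in wild type (0.70) and the lowest in the alp13 deletion (-0.59). The groups differ in width, and neither ranking held in every width class.

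The gap between lcf2, a gene for a long-chain fatty acid-CoA ligase, and SPBP4H10.12 had the highest wild-type level. It is 898 bp wide, and its 18 probes averaged 2.04 ± 0.11 (SD across probes) in wild type, 0.54 ± 0.09 in alp13Δ and 1.60 ± 0.11 in asf1-1. Next came ccp1/gcn2 at 1.90, iss9/orc6 at 1.89, oca3/cqd2 at 1.87, pol5/SPBC14C8.15 at 1.79 and erv41/tkt1 at 1.78. Among their genes, gcn2 encodes the kinase of translation factor eIF2, orc6 a subunit of the origin recognition complex and tkt1 transketolase. All 6 stayed above the array median in the other strains, at 0.24 to 0.63 in alp13Δ and 1.38 to 1.60 in asf1-1. The gap of erv41/tkt1 was the single divergent gap at least 1.5-fold above the median of the alp13 deletion array.

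At the other end stood mrpl35/atf21, beside genes for a mitochondrial ribosomal protein and a bZIP transcription factor. Its 51 probes averaged -1.67 in wild type, -2.10 in alp13Δ and -1.94 in asf1-1. The gap of hsp16, which encodes a small heat shock protein that is induced by stress, was at -1.40, -2.20 and -1.82 over 16 probes, in the same order. Next was pht1/shy1 at -1.01, -1.98 and -1.29, where pht1 encodes the histone variant H2A.Z. Low wild-type levels were followed by low levels in both mutants here, except that meu17/arc1, at -0.84 in wild type, was higher in the alp13 deletion at -0.57. The remaining named gaps of this end, utp24/llp1 and hob3/tsp0, had wild-type levels of -0.78 and -0.70 and levels of -1.84 and -1.73 in the alp13 deletion.

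A gap was usually higher than the genes on either side of it in wild type, and lower in the alp13 deletion. The wild-type level of the gap exceeded both flanking gene bodies in 125 of 200 gaps and lay below both in 14. In the alp13 deletion it exceeded both in 7 and lay below both in 146. In asf1-1 these counts were 85 and 31. Of 284 tandem gaps, 144 exceeded both bodies in wild type (50.7%, against 62.5% of divergent gaps) and 31 lay below both. In the alp13 deletion 13 tandem gaps exceeded both and 176 lay below both (62.0%, against 73.0%), and in asf1-1 80 and 74. Of 46 convergent gaps, 8 exceeded both and 18 lay below both in wild type, 2 and 21 in the alp13 deletion, and 3 and 25 in asf1-1. The median of gap minus the mean of its genes was 0.55 in wild type, -0.61 in alp13Δ and 0.18 in asf1-1, while the median level of the flanking bodies themselves was 0.10, 0.11 and 0.09. The same difference was 0.29, -0.42 and 0.00 over 284 tandem gaps, and -0.15, -0.29 and -0.34 over 46 convergent gaps. These contrasts are within an array, so the centring does not bear on them. They do rest on the ratio, and were not recomputed with Cy5 alone or with normexp. In wild type the median whole-cell extract (Cy3) intensity was 1004 over divergent probes and 1811 over all probes. The immunoprecipitated (Cy5) medians were 1476 and 1808. Shares by orientation were also not matched for the width of the gap.

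**Figure D2:**
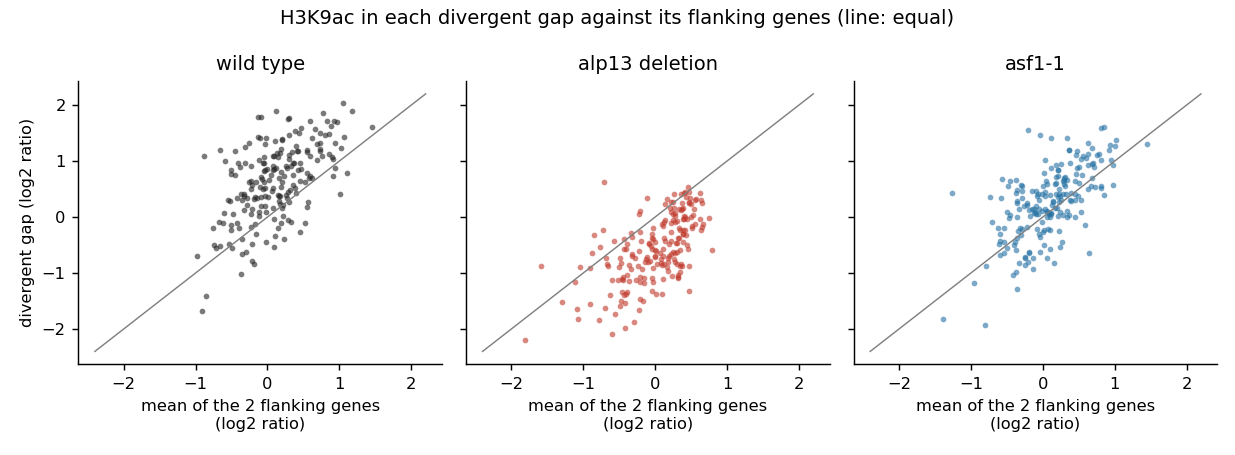
Level of each of 200 divergent gaps (vertical axis) against the mean level of its flanking genes (horizontal axis), both as log2 ratios with 0 at the array median, for each array. The line marks equal levels: most gaps lie above it in wild type and below it in the alp13 deletion. There 146 gaps were below both genes (73.0%, against 62.0% of tandem gaps). Divergent gaps are wider, with a median of 849.5 bp against 359 bp, and the shares were not matched for width.

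The levels of the genes on either side of a gap were close to uncorrelated. Across the 200 gaps the Spearman correlation between the left and the right gene body was 0.08 in wild type, 0.06 in alp13Δ and 0.09 in asf1-1. The gap itself followed the mean of its genes, with correlations of 0.53, 0.62 and 0.61. These are descriptions over gaps of 1 array, and a gap and its genes share sheared fragments of 500 to 1000 bp. The highest gap shows the asymmetry. In wild type the body of lcf2 was at -0.12 and that of SPBP4H10.12 at 2.24, with the gap at 2.04. In erv41/tkt1 the gap at 1.78 stood between bodies at 0.89 and -1.06.

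Wide gaps also differed from one end to the other. In the 80 gaps of at least 1000 bp, the median absolute difference between the sides left and right of the midpoint was 0.43 in wild type, and it reached 1.5-fold in 30 gaps and 2-fold in 10. The gap of cnt5/tif213, where tif213 encodes a subunit of translation factor eIF2, had the largest difference. Its side next to cnt5 was at -0.93 and its side next to tif213 at 1.06. SPBP23A10.11c/frg1 had sides at -0.30 and 1.69. The gap between gpx1, a glutathione peroxidase gene, and gtb1, the gamma-tubulin gene, had sides at -1.31 and 0.44. In mrpl39/str1, where str1 encodes a siderophore transporter, the left side was the higher one, at 1.20 against -0.43.

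In these 4 gaps the higher side of wild type was also the higher side in the mutants. In cnt5/tif213 the sides were at -2.18 and -0.83 in alp13Δ and at -1.38 and 0.40 in asf1-1. In SPBP23A10.11c/frg1 they were at -2.15 and -0.82, then -1.04 and 0.76. The sides of gpx1/gtb1 stood at -2.22 and -1.11 in alp13Δ and at -1.39 and -0.06 in asf1-1. Those of mrpl39/str1 stood at -0.68 and -1.68, then 0.58 and -0.90. Over all 80 gaps the difference between sides had the same sign in wild type and asf1-1 in 73 gaps and in wild type and the alp13 deletion in 65.

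Most divergent gaps had less H3K9ac in the alp13 deletion than in wild type, relative to each array's median. The median level was -0.59, with quartiles of -0.91 and -0.11, against 0.70 in wild type, and 40 of 200 gaps lay above the array median (20.0%, against 22.9% of all gaps), 1 of them by 1.5-fold (2.44% of all gaps). The median change was -1.23, with quartiles of -1.57 and -0.92 and a range from -2.26 to 0.34. At least 1.5-fold lower were 178 of 200 gaps (89.0%), against 75.9% of all gaps, 71.7% of tandem gaps, 45.7% of convergent gaps and 21.4% of genes. No divergent gap was 1.5-fold higher, against 1.69% of all gaps and 15.6% of genes. The change was at least 2-fold down in 134 gaps (67.0%, against 48.9% of all gaps) and 4-fold down in 11 (5.5%, against 3.95%). The direction is relative to the array median: centred on the median of probes between genes, 4331 of 8325 of which are divergent, the median change was -0.015, with 23 gaps lower and 25 higher by 1.5-fold, and 15 of the 46 named gaps called lower turned positive.

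Tandem gaps had a median change of -0.86 and convergent gaps of -0.55, while the median gene changed by -0.06. The loss ran through whole gaps and did not rest on single probes. In 185 of the 200 gaps every probe was lower than in wild type (92.5%, against 86.5% of all gaps), and 91.5% of the 4327 divergent probes were at least 1.5-fold lower, against 75.6% of tandem and 51.9% of convergent probes. Probe pairs printed at 2 places of the array, 238 pairs in all, gave an SD of 0.133 for the change of 1 probe, as a measure of error within an array. The gap SPBC23G7.10c/mag2 was covered by such pairs. Its change was -1.10 at one place and -1.07 at the other, over 16 pairs. These figures say nothing about the spread between cultures or hybridisations.

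The gap between cyp3, a cyclophilin gene, and sks2, which encodes an Hsp70 chaperone, had the largest loss. Over 34 probes it was at 1.53 in wild type, -0.72 in alp13Δ and 0.73 in asf1-1, a change of -2.26 ± 0.56 (SD across probes) without alp13. Its probes ran from -3.19 to -0.96, so each of them was lower. The gaps mis13/ade7, qcr1/tim18, rpc25/hbs1 and sce3/SPBC18H10.05 followed, with changes of -2.23, -2.21, -2.21 and -2.21. Of these genes, mis13 encodes a kinetochore protein, ade7 an enzyme of adenine synthesis, qcr1 a subunit of respiratory complex III, rpc25 a subunit of RNA polymerase III and hbs1 a ribosome rescue factor. Wild-type levels in these gaps ranged from 0.34 to 1.53, and levels in the alp13 deletion from -1.87 to -0.72. SPBP23A10.11c/frg1 completed the 6 lowest at -2.17.

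There were 6 gaps that were higher in the alp13 deletion than in wild type (3.0%, against 7.14% of all gaps), none of them by 1.5-fold. The gap between pho7, which encodes a transcription factor of the phosphate response, and cbp4 had 6 probes at -0.10 in wild type, 0.23 in alp13Δ and 0.04 in asf1-1. Its change was 0.33 ± 0.10. Beyond its left edge, the body of pho7 was at -0.84 in wild type and 0.74 in the alp13 deletion, while the body of cbp4 was at -0.40 and -0.46. The change was 0.27 in meu17/arc1, where arc1 encodes a subunit of the Arp2/3 complex, 0.21 in apc13/SPBC28E12.02 and 0.16 in end3/mrt4. The last 2, lsm3/mrpl10 at 0.34 and tra1/ubc7 at 0.12, rest on 4 probes each, and lsm3/mrpl10 was named after its value was seen.

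Flanking bodies of the other gaps in this group differed in direction. At meu17/arc1 the left body was at 0.17 in wild type and 0.77 in the alp13 deletion, and the right one at -0.55 and -0.54. At end3/mrt4 the left body was at -0.63 and 0.12 and the right one at -0.85 and -0.76, while at apc13/SPBC28E12.02 the left body was lower, at 1.00 and 0.23, and the right one higher, at -0.41 and 0.53. The bodies of lsm3/mrpl10 were at 0.09 and 0.02 on the left and 0.34 and 0.84 on the right, and those of tra1/ubc7 at -0.97 and 0.41 on the left and 0.52 and 0.08 on the right. Of all 873 genes, 15.6% were 1.5-fold higher without alp13. The slx8/dip2 gap and the SPBC27B12.12c/tom40 gap, at -0.28 and -0.31, had the smallest losses among the gaps named for a high change in the alp13 deletion. Slx8 is a subunit of a SUMO-targeted ubiquitin ligase and Tom40 the import channel of the mitochondrial outer membrane.

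**Figure D3:**
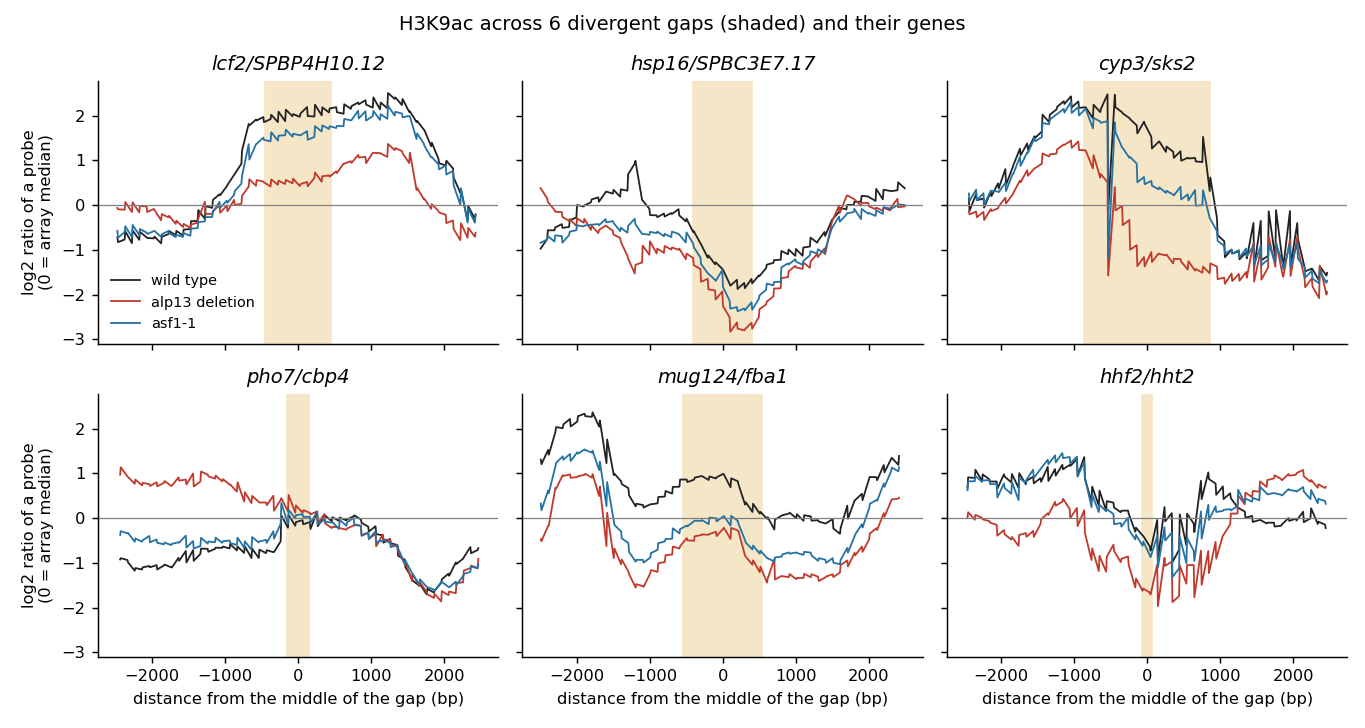
Log2 ratio of each probe (vertical axis, 0 is the array median) against its distance from the middle of the gap in bp (horizontal axis) for 6 divergent gaps, shaded, and the genes around them, with 1 line per strain. The alp13 deletion lies below wild type throughout 5 of the shaded gaps and above it in pho7/cbp4, and 1 probe near the left of cyp3/sks2 is low in all 3 strains.

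In asf1-1 divergent gaps were also lower than in wild type, by less. The median level was 0.30, with quartiles of -0.15 and 0.66, and 142 of 200 gaps lay above the array median (71.0%, against 61.1% of all gaps), 60 of them by 1.5-fold (25.4% of all gaps). The median change was -0.39, with quartiles of -0.55 and -0.22 and a range from -1.03 to 0.35. In 42 gaps (21.0%) the change was at least 1.5-fold down, against 17.9% of all gaps, 15% of tandem gaps, 21.7% of convergent gaps and 2.06% of genes, so the share among divergent gaps was near that of all gaps. None was 1.5-fold higher, against 0% of all gaps and 1.72% of genes. Every probe was lower than in wild type in 143 gaps (71.5%, against 68.2% of all gaps), and 180 gaps had a mean below that of wild type (90.0%, against 87.6%), so these shares too were near the general ones. Centred on probes between genes, the median change was 0.030, with 1 gap lower and 7 higher by 1.5-fold.

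The change in asf1-1 was largest in SPBC19C7.04c/rcr1, a gap of 3283 bp with 66 probes. Its level was 1.09 in wild type, -0.72 in alp13Δ and 0.06 in asf1-1, and its change in asf1-1 of -1.03 ± 0.25 (SD across probes) was the single one to reach 2-fold. Changes of -0.98, -0.95, -0.92, -0.91 and -0.91 followed in sce3/SPBC18H10.05, lsd90/SPBC16E9.20, mug124/fba1, alb1/ubc1 and cup1/eno101. Of these gaps, 2 hold the start of a gene of glycolysis, fba1 for fructose-bisphosphate aldolase and eno101 for enolase. The mug124/fba1 gap was even along its length in this change, with an SD of 0.06 over 22 probes.

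At the upper end, among gaps with at least 5 probes, the change in asf1-1 was 0.32 in end3/mrt4, 0.18 in ask1/meu25, 0.18 in mdm34/mrpl51, 0.14 in alg12/atp3, 0.14 in pho7/cbp4 and 0.08 in npl4/atg2402. Gaps of 3 or 4 probes also had such values, with 0.35 in lsm3/mrpl10, the highest of the 200, and 0.29 in slu7/pmt3, 0.28 in csc2/crt10 and 0.18 in tra1/ubc7, of which the first 3 were named after their values were seen. The gaps with at least 5 probes are 250 to 722 bp wide, with 6 to 14 probes. They hold the starts of genes for a subunit of the DASH kinetochore complex (ask1), a mannosyltransferase (alg12), the gamma subunit of the mitochondrial ATP synthase (atp3) and a mitochondrial ribosomal protein (mrpl51). Wild-type levels of these 6 ran from -0.51 to 0.74, within the range of the other gaps.

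Set directly against each other, asf1-1 was higher than the alp13 deletion by a median of 0.87 over divergent gaps, 0.58 over tandem gaps and 0.28 over convergent gaps. This comparison does not use the wild-type array. It reached 1.5-fold in 154 of 200 divergent gaps (77.0%), against 57.5% of all gaps and 15.9% of genes, and no divergent gap was 1.5-fold lower, against 1.13% of all gaps. Centred on probes between genes, the median difference over divergent gaps was 0.078. In 177 gaps the order was wild type, then asf1-1, then the alp13 deletion (88.5%, against 82.3% of all gaps). In 5 gaps asf1-1 lay below the alp13 deletion, with differences of -0.36 in meu17/arc1, -0.30 in lsd90/SPBC16E9.20, -0.19 in pho7/cbp4, -0.15 in apc13/SPBC28E12.02 and -0.02 in slx8/dip2.

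The gap of lsd90/SPBC16E9.20 was uneven without alp13. Its 31 probes averaged 0.76 in wild type, 0.11 in alp13Δ and -0.20 in asf1-1, and the change without alp13 ran from -1.64 to 0.65 along the gap. The gene bodies on either side went opposite ways: lsd90 was at -0.01 in wild type and 1.07 in the alp13 deletion, and SPBC16E9.20 at 0.10 and -1.51. In asf1-1 these bodies were at -0.18 and -1.06. The right body was thus lower in both mutants, and the left one higher without alp13 alone.

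Across the 200 gaps the levels of wild type and asf1-1 correlated at Pearson r = 0.916, those of asf1-1 and the alp13 deletion at 0.835, and those of wild type and the alp13 deletion at 0.677. These are descriptions over gaps that share probes and genomic sequence. The whole-cell extract channel of divergent probes was dimmer than that of the whole array, with a median Cy3 intensity of 1004, 1082 and 987 in wild type, the alp13 deletion and asf1-1, against 1811, 1619 and 1693 over all probes. The immunoprecipitated channel had medians of 1476, 840 and 1178 over divergent probes. Few divergent probes were not well above background, at most 37 in the Cy3 and 28 in the Cy5 channel of an array, and none was saturated.

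The losses were larger in wider gaps. In the alp13 deletion the median change was -0.91 in 31 gaps under 300 bp, -1.05 in 33 gaps of 300 to under 600 bp, -1.15 in 56 gaps of 600 to under 1000 bp, -1.48 in 59 gaps of 1000 to under 2000 bp and -1.57 in 21 gaps of at least 2000 bp. In asf1-1 it was -0.20, -0.29, -0.35, -0.52 and -0.55 over the same classes. At least 1.5-fold lower in the alp13 deletion were 23, 26, 52, 57 and 20 gaps of these classes, or 74.2%, 78.8%, 92.9%, 96.6% and 95.2%, against 59.8%, 73.5%, 86.4%, 80.6% and 100% of tandem gaps. In asf1-1 the counts were 0, 3, 10, 21 and 8, or 0%, 9.09%, 17.9%, 35.6% and 38.1%, against 8.55%, 15.7%, 13.6%, 32.3% and 36.4% of tandem gaps. Shares were thus also higher in wide tandem gaps than in narrow ones, and tandem gaps had the higher share in some classes. Spearman correlations with width over the 200 gaps were -0.46 for the change in alp13Δ and -0.48 for that in asf1-1.

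Wild-type levels did not follow width in the same way. Their medians were 0.35, 0.52, 0.71, 0.89 and 0.58 from the narrowest to the widest class, with a Spearman correlation of 0.07, and the difference between wide and narrow gaps turned sign when gaps of under 5 probes were left out or Cy5 was used alone. In the alp13 deletion the median level went from -0.12 in the narrowest class through -0.48, -0.54 and -0.72 to -1.12 in the widest. Tandem gaps were at -0.18, -0.43, -0.71, -0.94 and -1.34 there, so lower in every class but that of 300 to under 600 bp. Convergent gaps under 2000 bp were lower in each class, at -0.41, -0.57, -1.33 and -1.16 over 23, 15, 4 and 3 gaps. The 1 wider convergent gap was at 0.12. In asf1-1 the median level of divergent gaps was 0.42, 0.21, 0.34, 0.34 and -0.14. Tandem gaps of the same widths had median changes of -0.71, -0.84, -0.93, -1.20 and -1.12 in alp13Δ and wild-type medians of 0.51, 0.55, 0.28, 0.33 and 0.39. In asf1-1 the tandem medians were -0.21, -0.28, -0.42, -0.43 and -0.45. Divergent gaps thus had the larger median loss without alp13 in each class and the higher wild-type median in the classes from 600 bp up. In asf1-1 their median loss was the smaller one under 300 bp and from 600 to under 1000 bp, and the larger one in the other classes.

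**Figure D4:**
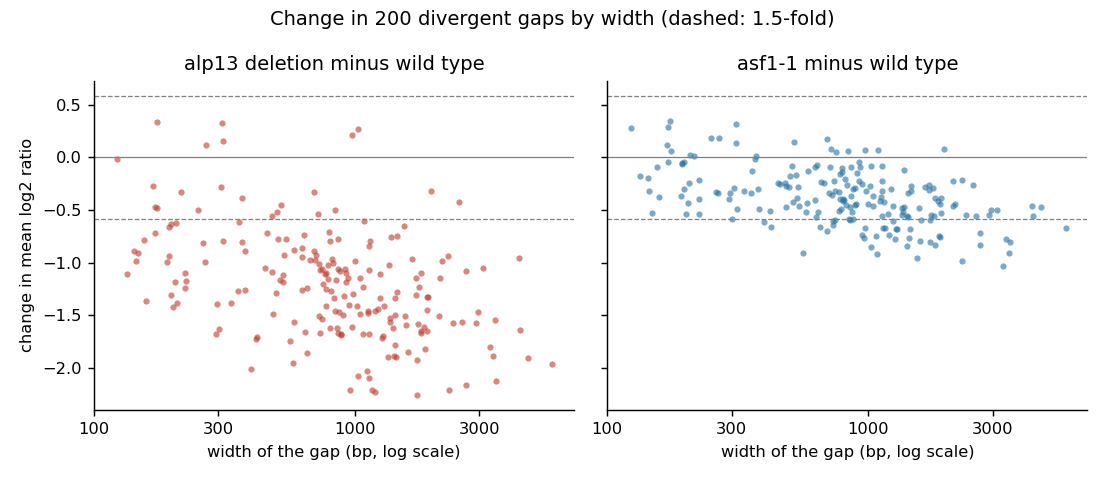
Change of each of 200 divergent gaps (vertical axis, mutant minus wild type in mean log2 ratio) against the width of the gap in bp (horizontal axis, log scale), for the alp13 deletion and asf1-1. Dashed lines mark 1.5-fold: 178 gaps lie below the lower line in alp13Δ and 42 in asf1-1, with larger losses in wider gaps.

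Sheared fragments of 500 to 1000 bp are longer than the narrow gaps, so probes there also report on DNA that extends into the genes. Base composition moved with the change as well. The change in the alp13 deletion correlated with GC content at a Spearman rho of 0.32, with medians of -1.59, -1.21, -1.10 and -1.10 over 4 groups of 50 gaps from the lowest to the highest GC content. Wild-type medians over these groups were 0.91, 0.64, 0.73 and 0.41. Median GC content by width class was 34.4%, 31.7%, 30.8%, 31.2% and 33.9%, so the widest gaps were not the lowest in GC. The part of fragment length and of base composition in the trend with width was not tested.

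The 4 widest gaps illustrate the range among long promoters. That of rtn1/but2, 5710 bp with 113 probes, was at 1.10 in wild type, -0.87 in alp13Δ and 0.43 in asf1-1, between gene bodies at -0.39 and -1.38 in wild type. Rtn1 is a reticulon of the endoplasmic reticulum. The gap of wis1, the MAP kinase kinase of the stress pathway, with SPBC409.08 is 4610 bp wide and was at 0.83, -1.07 and 0.36. The gap of clg1 and scr1, a transcriptional repressor gene, is 4276 bp wide and was at 0.08, -1.56 and -0.47. In ubp11/pat1, 4256 bp wide, the levels were 0.58, -0.38 and 0.12, where pat1 encodes the kinase that holds back meiosis.

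All 4 were lower in both mutants. Their changes in the alp13 deletion were -1.97, -1.90, -1.64 and -0.96, and in asf1-1 -0.67, -0.47, -0.55 and -0.46. The change without alp13 in ubp11/pat1 was uneven, with probes from -2.24 to 0.69, while every probe of the other 3 gaps was lower.

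Aligned on gene starts, the difference between strains grew from gene into gap. In gaps of 1000 to under 2000 bp the median wild-type probe was at -0.07 900 to 1000 bp inside the genes, 0.65 in the first 100 bp of the gap and 0.94 at 400 to 500 bp into it. In the alp13 deletion the same positions were at 0.17, -0.45 and -0.79. In asf1-1 they were at -0.05, 0.26 and 0.33. In these ratios wild type climbed towards the middle, the alp13 deletion fell, and asf1-1 stayed nearly level within the gap. The climb in wild type depends on the intensity used, as given with the centres below.

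The change in the alp13 deletion was 0.23 at 900 to 1000 bp inside the genes, 0.02 at 700 to 800 bp, -1.03 in the first 100 bp of the gap and -1.56 at 400 to 500 bp. In asf1-1 the change was 0.05, 0.02, -0.32 and -0.56 at these positions. In these gaps both changes passed through 0 inside the genes, a point that depends on the centring, and were negative at the start itself. In gaps of at least 2000 bp neither change reached 0 within 1000 bp of the start, where the highest steps were -0.02 in the alp13 deletion and -0.08 in asf1-1. There wild type was at 0.10 in the first 100 bp and 0.65 at 900 to 1000 bp, while the alp13 deletion was at -0.97 and -1.12 and asf1-1 at -0.15 and -0.19.

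**Figure D5:**
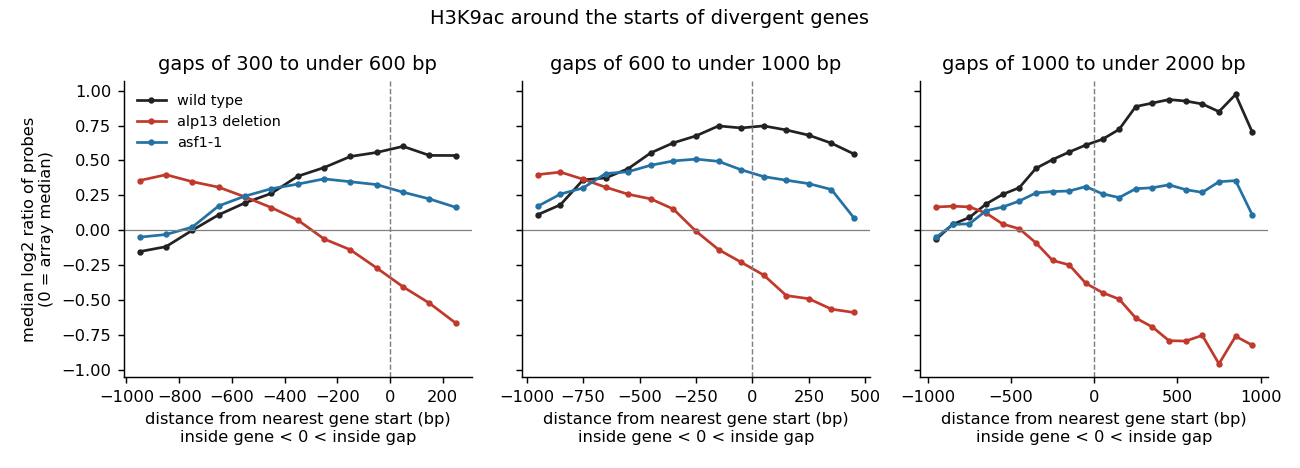
Median log2 ratio of probes (vertical axis, 0 is the array median) in steps of 100 bp from the nearest gene start (horizontal axis, bp, negative inside the gene and positive inside the gap), for 3 classes of gap width and with 1 line per strain. In gaps of 1000 to under 2000 bp wild type is at 0.94 and the alp13 deletion at -0.79 at 400 to 500 bp into the gap.

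Within the 80 gaps of at least 1000 bp, the centre (more than 400 bp from a start) was compared with the edges (within 200 bp of a start). Wild type had a median of 0.85 in the centre and 0.60 at the edges, and the centre was higher in 56 gaps, although the median difference of 0.29 was 0.013 with normexp background correction and -0.37 with Cy5 alone. The alp13 deletion had -0.86 and -0.59, with the centre lower in 60. In asf1-1 the medians were 0.26 and 0.18, with the centre higher in 48. The change in the alp13 deletion was lower in the centre than at the edges in 69 gaps, with a median difference of -0.50, and the change in asf1-1 in 67 gaps, with a median difference of -0.22.

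The edge of a gap depends on the annotation of gene starts. Of the 400 starts that flank the 200 gaps, 45 (11.25%) coincide with the start codon, so their annotation holds no 5′ untranslated region, and the median annotated length of that region elsewhere was 100 bp. Most gaps, 169 of 200, overlap an annotated non-coding gene. Their median width was 959 bp, their wild-type median 0.70 and their median change in the alp13 deletion -1.27. The 31 gaps with no such gene had a median width of 311 bp, a wild-type median of 0.79 and a median change of -0.93. There were 5 gaps that hold a tRNA gene, with a wild-type median of -0.33.

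The listed histone genes, hht2, hhf2 and pht1, flank 2 of the gaps. The core histone pair hhf2/hht2, for H4 and H3, shares 134 bp covered by 4 probes, which averaged -0.54 ± 0.17 (SD across probes) in wild type, -1.64 ± 0.06 in alp13Δ and -0.71 ± 0.17 in asf1-1. The change was -1.11 without alp13 and -0.17 in asf1-1. The H2A.Z gap pht1/shy1, given above among the lowest, changed by -0.97 and -0.28. Both gaps lay below the array median in every strain. Both were at least 1.5-fold lower without alp13, as were 89.0% of divergent gaps, and neither was in asf1-1, where 21.0% were.

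Of the listed genes of glycolysis, fba1, eno101 and pfk1 flank a gap each, and all 3 gaps were at least 1.5-fold lower in both mutants, where 89.0% and 21.0% of the 200 divergent gaps were (75.9% and 17.9% of all gaps). The gap of pfk1, for phosphofructokinase, and sad1 was at 0.76 in wild type, -1.12 in alp13Δ and -0.01 in asf1-1 over 67 probes. The mug124/fba1 gap was at 0.70, -0.53 and -0.22, and cup1/eno101 at 0.17, -1.37 and -0.74. Median changes over the 3 were -1.54 in alp13Δ and -0.91 in asf1-1, beside -1.23 and -0.39 over all 200 divergent gaps. The gaps of fba1, pfk1 and eno101 are wide, however, at 1078, 3374 and 3454 bp. Divergent gaps of 1000 to under 2000 bp had median changes of -1.48 in alp13Δ and -0.52 in asf1-1. Those of at least 2000 bp had -1.57 and -0.55. In asf1-1, 35.6% and 38.1% of gaps in these 2 classes were at least 1.5-fold lower, and in alp13Δ 96.6% and 95.2%. The list is short and was chosen with results of these arrays known.

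Ribosomal protein genes flank 11 gaps, of which 9 had at least 3 probes. Of the 9, 8 were at least 1.5-fold lower in alp13Δ and none in asf1-1, with median changes of -1.10 and -0.31. Over the 200 divergent gaps 89.0% were lower in alp13Δ and 21.0% in asf1-1, and over all gaps 75.9% and 17.9%. The count in alp13Δ was thus near the general share, while in asf1-1 it was 0 of 9. Of these gaps, elp5/rps21, leu3/rpl2502, rpl1701/ebs1, sib3/rps2402 and trz2/rps2501 are under 300 bp wide. In that width class 0 of 31 divergent gaps were lower in asf1-1. The changes of sim4/rpl1001 and rpl35A02/rad60 in asf1-1, -0.566 and -0.582, just missed 1.5-fold. The part of width was not tested. The gap of gid2/rpl8 was at 0.99 in wild type, -0.31 in alp13Δ and 0.68 in asf1-1. That of rpl2701/SPBC685.08 was at 0.43, -1.13 and -0.00, and rpl35A02/rad60 at 0.37, -1.09 and -0.21. That of leu3/rpl2502 was at 0.22, -1.16 and 0.25. The exception in the alp13 deletion was rpl1701/ebs1, at -0.09, -0.42 and -0.08 over 4 probes.

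The other ribosomal protein gaps changed by -1.10 in elp5/rps21, -0.95 in sim4/rpl1001, -0.78 in trz2/rps2501 and -0.63 in sib3/rps2402 in the alp13 deletion. In asf1-1 their changes were -0.39, -0.57, -0.09 and -0.25. Below 3 probes stood rps3002/SPBC19G7.04, with 2 probes and a change of -0.75 without alp13, and rpl701/rps1402, a gap of 67 bp between a pair of ribosomal protein genes, with 1 probe and a change of -1.64.

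Of the listed genes for subunits of the forms of the Clr6 complex, pst1, pst3 and png2 flank a gap each. The gap of gfa1 and pst1, which encodes the Sin3-like scaffold of one form of the complex, was at 0.96 in wild type, -1.07 in alp13Δ and 0.55 in asf1-1. Its change of -2.03 without alp13 was at least 4-fold. The gap of pst3, for another Sin3-like protein, and chs2 was at 0.37, -0.19 and 0.13, and that of png2, a PHD finger subunit, and rid1 at 0.91, 0.41 and 0.97. Of the 3, 1 was 1.5-fold lower in alp13Δ and none in asf1-1, where 89.0% and 21.0% of divergent gaps were (75.9% and 17.9% of all gaps).

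Of the listed stress and chaperone genes, hsp16, gpx1 and sks2 flank a gap each. All 3 gaps were at least 1.5-fold lower in alp13Δ and 1 of them, cyp3/sks2, in asf1-1, where 89.0% and 21.0% of divergent gaps were. The gap of hsp16/SPBC3E7.17 changed by -0.80 and -0.42, and gpx1/gtb1 by -1.23 and -0.29. From a list of meiotic genes made up of mei4, rec8, rec15, spo5, mei2, ste11, mam1 and all symbols starting with mug, 4 gaps were found, 3 with at least 3 probes. All 3 were at least 1.5-fold lower without alp13 and 2 in asf1-1, against 89.0% and 21.0% of divergent gaps (75.9% and 17.9% of all gaps). Those 2, mam1/SPBC25B2.03 and mug124/fba1, are 1797 and 1078 bp wide, and the latter is also counted with glycolysis. Of divergent gaps of 1000 to under 2000 bp, 35.6% were lower in asf1-1. The part of width was not tested. The gap of mam1, which encodes the exporter of M-factor, and SPBC25B2.03 was at 1.43 in wild type, -0.24 in alp13Δ and 0.60 in asf1-1. That of lsd1/mug57 was at 1.77, 0.14 and 1.19. The remaining one is mug124/fba1, and uvi31/mug100, with 2 probes, changed by -0.96 without alp13.

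Of the listed cell cycle genes (cdc10, mcm2, cdc18, rum1, cdc2, cdc25, wee1, cdc13, cig2, mik1, cdc22, cdt1, nda3 and cut1), rum1 and mcm2 flank a gap each. The gap of duo1 and rum1, which encodes an inhibitor of the cyclin-dependent kinase, was at 0.73 in wild type, -0.74 in alp13Δ and 0.42 in asf1-1. The gap of mcm2, a subunit gene of the replicative helicase, and mlo2 was at 0.35, -0.12 and 0.41 and missed 1.5-fold in both mutants. Of these 2 gaps, 1 was thus 1.5-fold lower in alp13Δ and none in asf1-1, beside the same general shares of 89.0% and 21.0%. Of the listed chromatin genes (tra1, slm9, clr1, tas3, set2, swi6, hip1, asf1, hrp1 and hrp3), tas3 and tra1 flank a gap each, and 1 of these gaps was 1.5-fold lower without alp13 and none in asf1-1, where 89.0% and 21.0% of divergent gaps were (75.9% and 17.9% of all gaps). The gap of tas3, for a subunit of the RITS silencing complex, and apc15 was at 1.31, 0.14 and 0.89. The gap of tra1, for the large subunit of SAGA, and ubc7 was at -0.17, -0.05 and 0.01.

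Motifs known from fission yeast promoters were searched on both strands of the reference sequence of each gap. TATAAA was found in 77.5% of the 200 divergent gaps and 69.0% of all 532 gaps. AAAAAAAA, a poly(dA:dT) tract, was found in 53.5% and 42.3%, CCCCT in 29.0% and 20.5%, and AACCCT in 23.5% and 17.3%. TGACGT, the core of the CRE, was found in 13.5% and 9.21%, and ACGCGT, the core of the MCB, in 8.0% and 5.64%. CAGTCACA, the HomolD box of ribosomal protein promoters, was found in 5.5% and 3.57%. The HomolE box was found in 3 of the 200 divergent gaps and 8 of all 532 gaps, so its share was no higher in divergent gaps. Divergent gaps are wider, and a wider window holds more matches: gaps with TATAAA had a median width of 1020 bp and those without of 266 bp. Within width classes no motif kept the higher share in divergent gaps throughout. TATAAA was in 19.4% of divergent and 39.2% of all gaps under 300 bp, 63.6% and 64.9% from 300 to under 600 bp, 89.3% and 93.3% from 600 to under 1000 bp, and 96.6% and 91.4% from 1000 to under 2000 bp. The poly(dA:dT) tract was in 6.45% and 15.2%, 18.2% and 32.8%, 55.4% and 50%, and 79.7% and 77.4% of the same classes. HomolD and AACCCT had the higher share in divergent gaps in each class under 1000 bp, and the lower one in wider classes. Under 300 bp HomolD was in 12.9% of divergent and 4.09% of all gaps, and AACCCT in 16.1% and 9.36%. CCCCT and TGACGT had the higher share in divergent gaps from 1000 bp up, and the lower one in narrower classes.

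Gaps with and without a motif differed in level together with their width. The wild-type median was 0.76 with TATAAA and 0.39 without, and the median change in the alp13 deletion was -1.33 and -0.91. For the poly(dA:dT) tract the wild-type medians were 0.85 and 0.50, the median changes -1.47 and -1.06, and the median widths 1192 and 509 bp. The 11 gaps with HomolD had a wild-type median of 0.35, against 0.74 without it, and a median change of -1.10, against -1.23. Within width classes the direction was not always kept. In gaps of 1000 to under 2000 bp the wild-type median was 0.84 in 57 gaps with TATAAA and 1.21 in the other 2, and 0.99 in 3 gaps with HomolD and 0.87 without. In gaps of 600 to under 1000 bp it was 0.76 in 50 gaps with TATAAA and 0.39 in the other 6. For the poly(dA:dT) tract it was 0.86 with and 0.26 without in gaps of 600 to under 1000 bp, and 0.92 and 0.73 from 1000 to under 2000 bp. A match is a description of the letters in the window.

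The 13 gaps with fewer than 3 usable probes had wild-type levels from -0.76 to 1.86, with a median of 0.59. All 13 were lower in the alp13 deletion, as were 494 of the 532 gaps of every orientation with at least 3 probes. Their changes ran from -1.64 to -0.12, with a median of -0.96. In asf1-1, 12 of 13 were lower, as were 466 of the 532 gaps, with changes from -0.53 to 0.00 and a median of -0.23 over the 13. Both counts were near the general ones. Each rests on 1 or 2 probes.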

How the data were processed

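H3K9ac chromatin immunoprecipitation (Cy5) and whole-cell extract DNA (Cy3) of 3 strains, 1 array each, were compared on 2-colour Agilent arrays. DNA had been amplified by random-primed PCR, per the labels' protocols. Scanning software was Agilent Feature Extraction, version 10.7.3.1 (per the labels' notes and the file headers). Their deposited processed intensity was background-subtracted and dye-normalised by the authors' scanner software, and the deposited log ratio of Cy5 to Cy3 has log10 units, per the file headers. Which genome build the probes were designed on is not given.

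Each probe's log2 ratio of processed intensities was centred on the array median, without loess, after leaving out control spots and 81 outlier spots (43912 of 43993 probes kept). Array positions were set on ASM294v3 by an offset of 900 bp below array base 1616911 and 1800 bp above it, over array bases 1000011 to 3049820 outside 1597661 to 1650020. Whole-cell extract signal followed reference GC content at r = 0.461 and 0.442 with this offset, and at 0.507 and 0.481 with probes 30 bp further left, which was added as an alternative after the data were seen. A gap's value is the mean over its probes, with at least 3 probes, and SDs across probes are not replicate errors. A change of 1.5-fold was the threshold. No test was run, since there is 1 array per strain. Array number limits the precision.

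The members, gene lists and motifs were chosen with earlier results of these data known. Named gaps are the 6 highest and 6 lowest by wild-type level and by each change, the 4 widest and the 4 with the largest difference between sides of the midpoint, all with at least 5 probes, and every gap beside a listed gene, also with fewer probes. Alternatives were no centring, centring on probes between genes, normexp (limma 3.58.1, offset 50), Cy5 alone, the scanner log ratio, arrays at one spread, probe medians, 5 probes, outliers kept, positions shifted by 50 bp, gaps without non-coding genes, and classes of width and GC. Normexp had been planned on mean signals and was run on median signals. The computation used Python 3.11.15 and R 4.3.3 and was tested on simulated data.

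The authors' deposited value table, treated as a score of unknown scale, centring and direction, had column medians of 0.114, 0.0849 and -0.0204 for wild type, the alp13 deletion and asf1-1. Its columns correlated with the arrays they are named for at 0.226, 0.528 and -0.58, so it entered no comparison, and the assignment of arrays to strains rests on the labels.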

Additional observations from a re-analysis of the deposited data

How the results depend on the processing

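No paired analysis was possible because each strain has 1 array, and no replicate could be left out. Under 15 alternatives, 266 values of 20 results were recomputed: 218 stayed within the error of duplicate probes or, for counts, within 1.5 times, 42 moved further and 6 turned sign. Centring sets the size of every change. Without it, median changes of divergent gaps were -0.82 in alp13Δ and -0.23 in asf1-1, the difference between the mutants was 0.63, and 4 gaps were 1.5-fold higher in alp13Δ and 18 lower in asf1-1. Centred on probes between genes, 4331 of 8325 of which are divergent, the wild-type level was 0.14, the changes -0.015 and 0.030 (turned) and the difference between mutants 0.078. By construction this puts most gaps near 0: 23 were then lower and 25 higher in the alp13 deletion, and 1 lower and 7 higher in asf1-1. Among 46 named gaps called in the alp13 deletion 15 turned positive: elp5/rps21 0.12, erv41/tkt1 0.068, hhf2/hht2 0.11, hob3/tsp0 0.19, hsp16/SPBC3E7.17 0.42, lsd90/SPBC16E9.20 0.57, pht1/shy1 0.25, rps3002/SPBC19G7.04 0.46, sib3/rps2402 0.59, sim4/rpl1001 0.27, tas3/apc15 0.055, trz2/rps2501 0.43, ubp11/pat1 0.26, utp24/llp1 0.16 and uvi31/mug100 0.25. With Cy5 alone the wild-type level was -0.31 (turned), the change in the alp13 deletion -0.93 and the difference between mutants 0.57. The wild-type difference between wide and narrow gaps (1000 bp or more minus under 300 bp) was then -0.68, that of centre minus edges -0.37 (both turned), and the centre minus edges of the change in the alp13 deletion -0.35. With 5 probes or more, the wild-type difference by width was -0.21 (turned) and that of the change in asf1-1 -0.20. The causes of these turns were not tested. With normexp the wild-type level was 0.54, its difference by width 0.19, its centre minus edges 0.013, and its divergent minus convergent difference 0.60. Normexp also gave changes in asf1-1 of -0.54 by width, -0.32 for centre minus edges and 0.0055 for divergent minus convergent gaps (turned), with 1 gap higher in each mutant. At one spread per array, the difference between mutants was 1.05, the differences by width -0.77 in alp13Δ and -0.43 in asf1-1, and divergent minus convergent gaps -0.0063 in asf1-1. Without gaps that overlap a non-coding gene, 25 gaps were lower in alp13Δ and 3 in asf1-1, with median changes of -0.93 and -0.25 and a difference between mutants of 0.75. Divergent minus tandem gaps was then 0.47 in wild type and -0.024 for the change in asf1-1, and divergent minus convergent gaps -0.42 for that in the alp13 deletion. Differences by width and by centre gave no value there. Divergent minus convergent gaps, for the change in the alp13 deletion, was -0.85 with probes 30 bp left, -0.88 with 50 bp left and -0.82 with 50 bp right, and -0.42 within classes of width. The change in asf1-1 was -0.017 for divergent minus tandem gaps within classes of width and -0.039 for divergent minus convergent gaps within classes of GC. The cause was not tested for these either. Dim channels limit low levels: up to 37 divergent probes of an array were not well above background.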
